A study of Mus musculus with 6 samples.

Results

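The genes described here encode the proteins that clear calcium from the cytosol of the heart muscle cell, measured in the left ventricle of wild-type mice and of 4SA-Rad knock-in mice. They are the sarcoplasmic reticulum calcium pump gene Atp2a2, the genes of its small peptide regulators Pln, Sln and Strit1, the sodium-calcium exchanger gene Slc8a1 and the plasma membrane calcium pump genes Atp2b1 and Atp2b4. The 7 were listed by name, and each was found once among the 34945 symbols of the count table. The study sequenced total RNA from left ventricle of 3 wild-type and 3 4SA-Rad knock-in mice. The strain is given as C57BL/6N for all 6, and the sources used here do not give age, sex or zygosity. Rad is a small GTP-binding protein that holds back L-type calcium channels of the heart, and in the 4SA allele, as background from the study, serines that protein kinase A phosphorylates are replaced by alanine. The comparison asks whether ventricles with this allele differ from wild-type ventricles in their transcripts.

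At each heartbeat calcium enters through L-type channels and releases more calcium from the sarcoplasmic reticulum, and relaxation requires that the calcium be removed again. Most of it is returned to the reticulum by SERCA2, the ATP-driven pump encoded by Atp2a2, while the exchanger NCX1 (Slc8a1) moves the rest out of the cell in exchange for sodium, and the plasma membrane pumps PMCA1 (Atp2b1) and PMCA4 (Atp2b4) carry little of this flux. Phospholamban (Pln) and sarcolipin (Sln) are membrane peptides that inhibit SERCA, whereas DWORF, the peptide of Strit1, displaces phospholamban from the pump. In the fight-or-flight response protein kinase A phosphorylates phospholamban and so relieves the pump of its inhibitor.

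The open reading frames of the 3 regulators are shown because each encodes only a short membrane peptide. They are taken from GENCODE M21 transcripts on GRCm38, and capitals mark the start and stop codons and, in Pln, codons 16 and 17, for the serine that protein kinase A phosphorylates and the threonine that the calmodulin kinase CaMKII phosphorylates.
Pln (chr10:53343864-53344022, plus strand): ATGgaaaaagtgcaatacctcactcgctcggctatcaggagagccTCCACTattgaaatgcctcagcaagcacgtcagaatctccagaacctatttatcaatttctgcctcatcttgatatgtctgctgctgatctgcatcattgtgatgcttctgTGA
Sln (chr9:53853473-53853568, plus strand): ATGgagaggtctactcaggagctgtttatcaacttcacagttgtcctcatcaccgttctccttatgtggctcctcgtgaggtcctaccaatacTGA
Strit1 (between chr3:63481290-63483827, minus strand): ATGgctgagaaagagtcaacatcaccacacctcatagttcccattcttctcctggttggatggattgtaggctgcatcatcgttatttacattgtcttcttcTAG
The frames hold 52 codons in Pln, 31 in Sln and 34 in Strit1, stop codon not counted. All 6 coding transcripts annotated for Pln carry the same frame, so in this annotation they encode a single peptide. In that annotation Strit1 has the older symbol Gm34302.

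The libraries held between 24761124 and 39627397 estimated counts, with the 3 deepest all from knock-in mice. Mitochondrial genome transcripts took 53.1% to 56.9% of the counts. Levels are given as CPM, the usual depth-scaled count, with TMM scaling between libraries, in order of replicate 1 to 3 within a genotype. The 10 ventricular cardiomyocyte markers summed to 41655 to 44222 CPM in wild-type libraries and 42400 to 43798 CPM in knock-in libraries, and 1 of them, Actn2, was called, as lower, though in 0 of the 6 fits without 1 library each. edgeR's quasi-likelihood test was run on 13485 genes, of which 1215 (9.01%) were called at a Benjamini-Hochberg adjusted p below 0.05. They were 540 higher and 675 lower genes, or 227 higher and 1177 lower with library size in place of TMM. Leaving out 1 library gave 338 to 775 calls, except for knock-in replicate 1, without which there were 1378. Nnt, Wdfy1 and Entpd4, genes known to differ between C57BL/6 substrains, differed between the genotypes, with Nnt at 271.7 ± 10.0 and 680.4 ± 73.8 CPM (mean ± SD, n = 3 each). For every value that follows, the Rad allele and this background therefore cannot be told apart.

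None of the 7 genes passed the test, in either direction, against the 9.01% of all tested genes that were called. At an unadjusted p below 0.05 there were 2, Pln on the higher side and Atp2b1 on the lower side. limma-voom, which called 9.28% of all genes, also called 0 of the 7, with 2 below an unadjusted p of 0.05, and DESeq2, which called 8.13%, called 1, Pln. Log2 fold changes, knock-in minus wild-type, were above 0 for 5 genes and below 0 for 2, with a median of 0.04, where the median of all tested genes was 0.00. The levels of Pln and Atp2b1 did not overlap between the genotypes, which was also so for 29.4% of all tested genes. In a bulk sample, fewer cells of a type and less RNA per cell cannot be told apart.

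**Figure D1:**
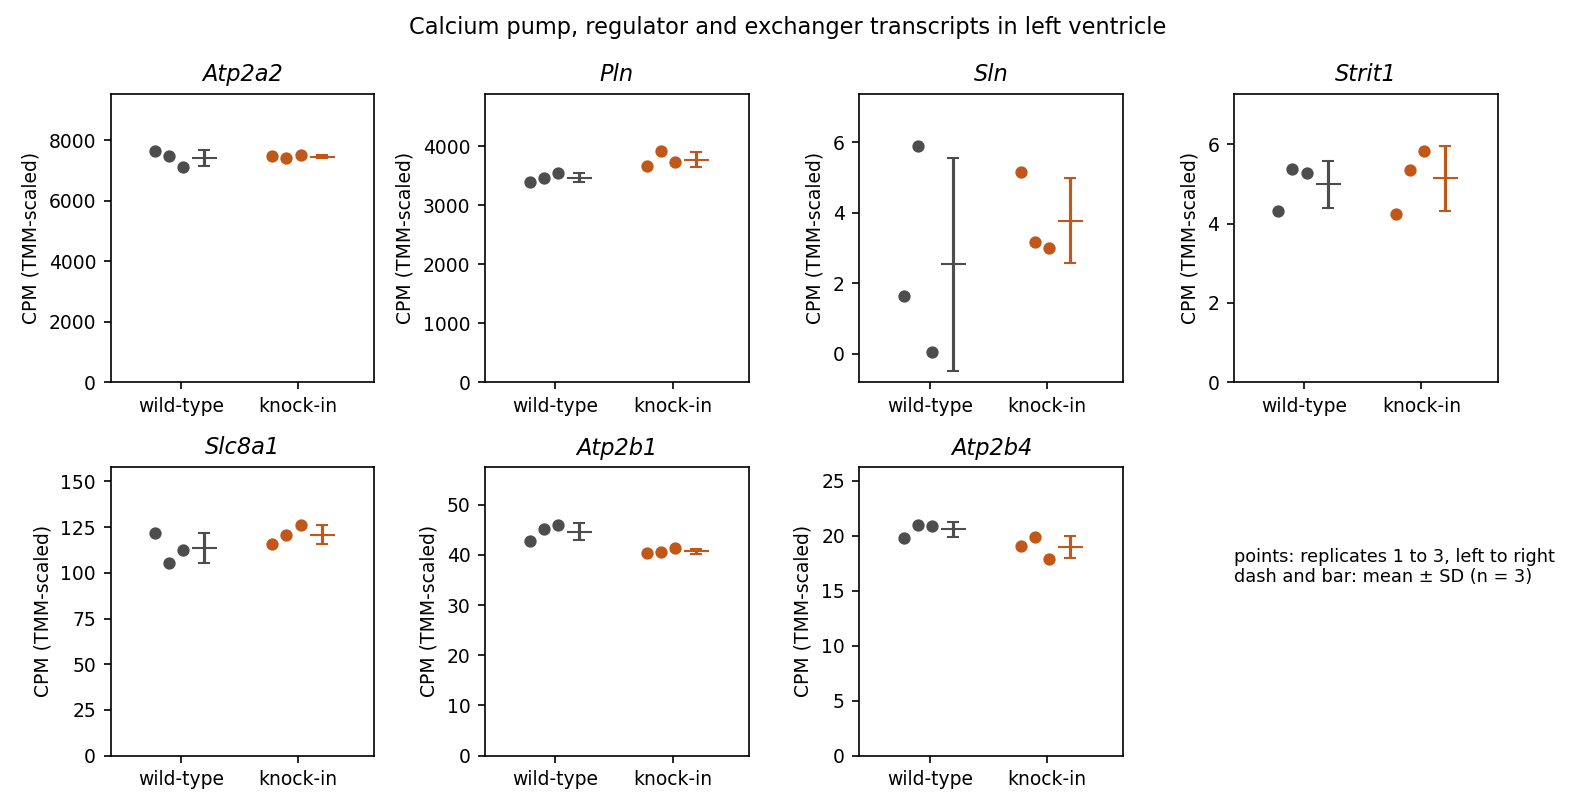
Each panel gives the TMM-scaled CPM of 1 gene in the 3 wild-type and 3 knock-in libraries (points, replicates 1 to 3 from left to right), with the mean ± SD beside them and linear axes that include 0 (for Sln the lower end of the SD bar falls below 0). Pln lay higher and Atp2b1 lower in all 3 knock-in libraries, with mean differences of 8.77% and -8.77%, and Sln ranged from 0.0614 to 5.90 CPM within wild-type alone.

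Atp2a2 (chr5:122453513-122502225 on GRCm38, minus strand) was among the most abundant nuclear transcripts of the ventricle, ranking 3rd or 4th by count among all symbols outside the mitochondrial genome in every library. It was read at 7635, 7475 and 7127 CPM in the 3 wild-type mice and at 7483, 7396 and 7503 CPM in the 3 knock-in mice. The knock-in values lay inside the wild-type range, and lay within 1.01-fold of each other. The log2 fold change was 0.01 ± 0.04 (SE; edgeR adjusted p = 0.919), and the 95% interval of the difference ran from -5.60% to 7.30%. The table has a single row for this gene, so the muscle isoform SERCA2a and the widely expressed isoform SERCA2b are not separated. Without wild-type replicate 3, the lowest wild-type library, the log2 fold change was -0.02, and with library size in place of TMM it was -0.07.

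Pln (chr10:53337667-53345987, plus strand) ranked 10th by count among nuclear symbols in all 6 libraries. It was read at 3399, 3459 and 3553 CPM in the 3 wild-type mice and at 3667, 3917 and 3740 CPM in the 3 knock-in mice. Every knock-in library was above every wild-type library, and the gap between the nearest of them was smaller than the spread within the knock-in group. The means were 3470 ± 77.4 CPM and 3775 ± 128.6 CPM (SD, n = 3 each), a log2 fold change of 0.12 ± 0.04, or 8.77% with a 95% interval of 1.74% to 16.3%. The gene did not pass in edgeR (unadjusted p = 0.0186, adjusted p = 0.113) and lay at the threshold in DESeq2 (adjusted p = 0.0498). Over the other settings tried the log2 fold change was between 0.04 and 0.14, the lowest with library size alone. The annotation places Pln inside Cep85l and over Gm47644, both on the opposite strand, with 141 and 1644 shared exon bases, and whether strand was used in counting is not given in the sources used here.

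The proportion of inhibitor to pump can be read within each library without any scaling between libraries. There were 44.5, 46.3 and 49.8 Pln counts per 100 Atp2a2 counts in the 3 wild-type mice and 49.0, 53.0 and 49.8 in the 3 knock-in mice. Wild-type replicate 3 was above knock-in replicate 1, so the genotypes overlapped in this proportion although they did not in the Pln level. The difference of the mean log2 ratios was 0.11 (exact permutation test over 6 libraries, two-sided p = 0.20, adjusted over 6 ratios 0.40), and 3 against 3 libraries cannot give a p below 0.10. Relative to Ryr2, the release channel of the same membrane, the Pln difference was 0.15 (exact permutation p = 0.10, adjusted 0.40), with no overlap between the genotypes. For how many of all genes such a ratio does not overlap was not computed.

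**Figure D2:**
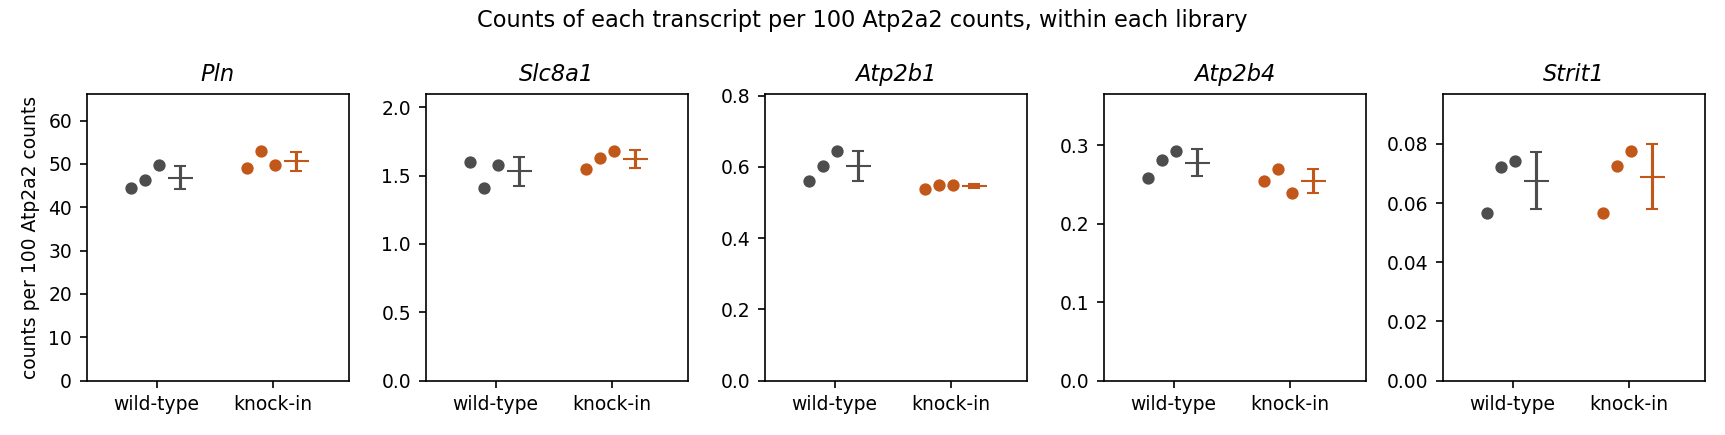
Counts of 5 genes (Sln is not drawn) per 100 counts of Atp2a2 in the same library, with 3 wild-type and 3 knock-in libraries as points, the mean ± SD beside them, and axes that start at 0. Atp2b1 was lower in all 3 knock-in libraries (0.539 to 0.550) than in wild-type (0.560 to 0.645), while the other 4 genes overlapped.

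Strit1 (chr3:63481112-63483879, minus strand) was read from 111 to 235 counts per library. Its level was 4.32, 5.39 and 5.28 CPM in the 3 wild-type mice and 4.24, 5.36 and 5.83 CPM in the 3 knock-in mice. The first replicate of each genotype was the lowest, and the genotypes overlapped over nearly their whole range. The log2 fold change of 0.04 ± 0.14 (edgeR adjusted p = 0.896) had a 95% interval from -17.3% to 27.5%, wider than that of the abundant genes. Its sign followed single libraries, at -0.05 without wild-type replicate 1 and -0.06 without knock-in replicate 3, and it was -0.04 with library size alone. Counts were 0.0566 to 0.0741 per 100 Atp2a2 counts in wild-type and 0.0567 to 0.0776 in knock-in libraries (difference of log2 ratios 0.02, exact permutation p = 0.70).

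Sln (chr9:53850164-53854560, plus strand) was the most variable of the 7 genes, with an SD of log2-CPM of 2.08 over the 6 libraries against 0.19 or less for the others. The 3 wild-type mice gave 42, 198 and 2 counts, or 1.64, 5.90 and 0.0614 CPM. The 3 knock-in mice gave 170, 110 and 121 counts, or 5.15, 3.17 and 3.00 CPM. Wild-type libraries held both the highest and the lowest level, 96-fold apart, whereas the knock-in libraries spanned 1.72-fold. The 2 counts of wild-type replicate 3 have an exact 95% Poisson interval of 0.242 to 7.22 counts, for counting error only. The log2 fold change was 0.54 ± 0.71 (edgeR adjusted p = 0.691), with a 95% interval from 0.490-fold to 4.31-fold. Differences inside that interval, lower or higher, were not excluded. Leaving out wild-type replicate 3 gave -0.05 (edgeR adjusted p = 0.967), and leaving out wild-type replicate 2 gave 2.26 (edgeR adjusted p = 0.0771). limma-voom gave 2.02 on the same 6 libraries (adjusted p = 0.229). Sln counts per 100 Atp2a2 counts were 0.0214, 0.0789 and 0.000862 for wild-type and 0.0689, 0.0428 and 0.0400 for knock-in, with overlap between the genotypes. The difference of the mean log2 ratios was 2.11 (exact permutation p = 0.40, adjusted 0.48), 0.25 when wild-type replicate 3 was left out and 3.51 when wild-type replicate 2 was.

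In mice sarcolipin is a product of atrial and skeletal muscle, and the library-to-library pattern of Sln was nearest to that of some atrial transcripts. Among all tested genes, those nearest to Sln in log2-CPM centred over the 6 libraries were Mybphl, Myl7, Myl4, Fancb and Hamp, with root mean square differences of 0.36, 0.43, 0.84, 0.93 and 0.95. Myl7 and Myl4 are the atrial myosin light chains, Mybphl encodes a myosin-binding protein of atrium and conduction tissue, and Hamp encodes hepcidin. Myl7 stood at 6.74, 27.8 and 1.17 CPM in the 3 wild-type mice and at 28.1, 15.1 and 17.3 CPM in the 3 knock-in mice, so that wild-type replicate 3 was lowest and wild-type replicate 1 next, as for Sln. There were 17.3 to 24.3 Sln counts per 100 Myl7 counts in 5 libraries and 5.26 in wild-type replicate 3, where the 2 Sln counts leave this proportion imprecise. Myl7 was picked here by its likeness to Sln, so the shared order and this proportion are not separate support. Fancb and Hamp had at most 40 counts in any library.

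**Figure D3:**
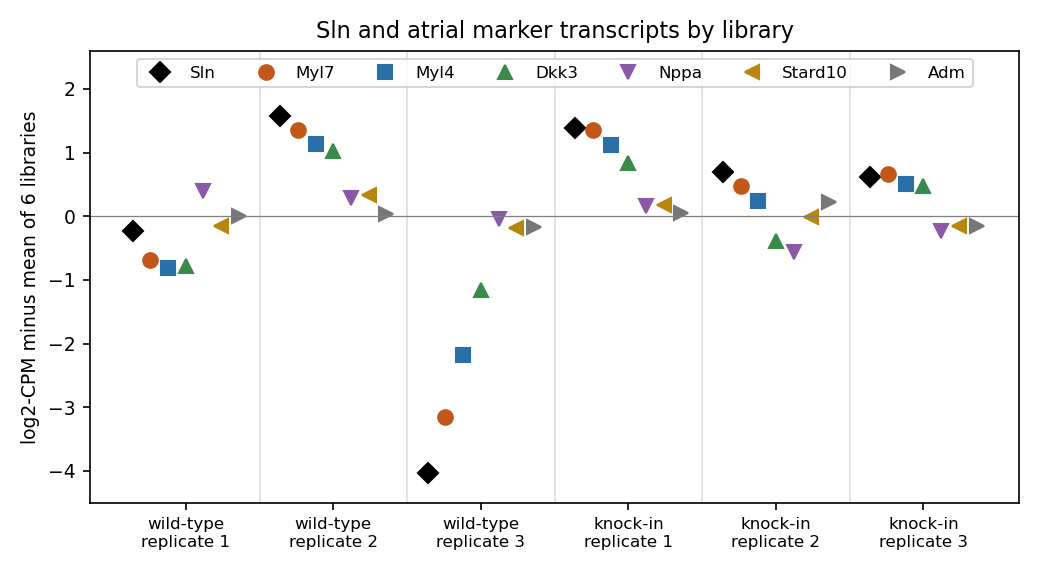
Level of Sln and of the 6 tested atrial marker genes in each of the 6 libraries as log2-CPM minus the gene's mean over the libraries. Sln, Myl7, Myl4 and Dkk3 were lowest in wild-type replicate 3 (-4.04, -3.16, -2.18 and -1.16) and highest in wild-type replicate 2 or, for Myl7, in knock-in replicate 1, while Nppa, Stard10 and Adm stayed between -0.56 and 0.39.

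Of 7 atrial markers listed, 6 were tested, 4 had log2 fold changes above 0, 2 below, and none was called (4.00% of all genes were called as higher and 5.01% as lower). Their summed level was 63.5 to 148.9 CPM in wild-type libraries and 84.5 to 141.9 CPM in knock-in libraries, and Bmp10 was read at 0 to 2 counts. Of the 6, Myl7, Myl4 and Dkk3 lay nearest to Sln (root mean square differences 0.43, 0.84 and 1.31). Stard10, Adm and Nppa lay farther from it (1.78, 1.82 and 1.90), and none of these 3 shared its low level in wild-type replicate 3 to that extent, with centred values there of -0.18, -0.17 and -0.05. The part of atrial RNA in the Sln values was not tested. Markers of skeletal muscle, the other main site of sarcolipin, were near 0, with a summed level of 9 genes of 1.22 to 1.44 CPM in wild-type libraries and 0.778 to 1.61 CPM in knock-in libraries.

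Slc8a1 (chr17:81373105-81738377, minus strand) was read at 121.9, 105.6 and 112.5 CPM in the 3 wild-type mice and at 115.8, 120.6 and 126.3 CPM in the 3 knock-in mice. The genotypes overlapped, with wild-type replicate 1 above 2 of the 3 knock-in libraries. The means were 113.3 ± 8.21 and 120.9 ± 5.29 CPM, a log2 fold change of 0.09 ± 0.06 (edgeR adjusted p = 0.359) and a 95% interval from -2.44% to 16.7%. Leaving out wild-type replicate 1 moved the log2 fold change to 0.15, leaving out wild-type replicate 2 moved it to 0.04, and neither passed. The annotation has AC122399.1 on the opposite strand, with 296 exon bases shared with Slc8a1. There were 1.53 ± 0.102 Slc8a1 counts per 100 Atp2a2 counts in wild-type and 1.62 ± 0.0688 in knock-in libraries (exact permutation p = 0.30).

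Both plasma membrane pump genes had log2 fold changes below 0, and neither passed the test. Atp2b1 (chr10:98914406-99026143, plus strand), the more abundant of them, was read at 42.8, 45.1 and 46.0 CPM in the 3 wild-type mice and at 40.4, 40.5 and 41.3 CPM in the 3 knock-in mice. All 3 knock-in libraries lay below all 3 wild-type libraries and within 1.02-fold of each other. The difference was -8.77% (95% interval -15.4% to -1.63%; log2 fold change -0.13 ± 0.05, edgeR unadjusted p = 0.0217, adjusted p = 0.123). Its adjusted p was between 0.0617 and 0.283 over 15 other settings, the lowest with library size alone and, without a change of scaling, 0.0998 without wild-type replicate 1. The ratio of Atp2b1 to Atp2a2 rests on the same Atp2b1 counts and is not separate support. It did not overlap between the genotypes, with a difference of log2 ratios of -0.14 (exact permutation p = 0.10, the smallest that 3 against 3 libraries can give, adjusted 0.40). The share of all genes without overlap in such a ratio was not computed. Relative to Ryr2 the difference was -0.10 (exact permutation p = 0.20).

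Atp2b4 (chr1:133699457-133801041, minus strand) was read at 19.8, 21.0 and 20.9 CPM in the 3 wild-type mice and at 19.1, 19.9 and 17.9 CPM in the 3 knock-in mice. Knock-in replicate 2 was marginally above wild-type replicate 1, and the other knock-in libraries were below the wild-type range. The log2 fold change was -0.12 ± 0.06 (edgeR adjusted p = 0.284), with a 95% interval from -16.4% to 1.57%. Atp2b1 and Atp2b4 together summed to 62.6 to 66.9 CPM in wild-type libraries and 59.2 to 60.4 CPM in knock-in libraries. Most of this sum was Atp2b1, so it is not separate support, and Atp2b4 alone overlapped between the genotypes.

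Plasma membrane pumps are made by many cell types of the heart, so marker levels of other cells are given beside them. Of 8 macrophage markers 5 fell and 3 did not pass, where 5.01% of all genes were called lower, and their summed level was 151.2 to 153.0 CPM in wild-type libraries and 109.2 to 125.6 CPM in knock-in libraries. Over the 6 fits without 1 library each, Lyz2 was called in 6, C1qb in 5, Csf1r in 3 and Adgre1 and C1qa in 2. Of 8 endothelial markers 2 fell and 6 did not pass, against the same 5.01%, with sums of 472.5 to 496.5 and 443.7 to 512.6 CPM. Of those 2, Esam was called in all 6 such fits and Tie1 in 2. None of 8 smooth muscle and pericyte markers was called, with sums of 521.9 to 539.2 and 495.3 to 512.3 CPM. Rgs5 made up most of these sums, and 4 of the 8 genes had log2 fold changes above 0 and 4 below. None of 8 fibroblast markers was called either, with sums of 480.6 to 577 and 508.6 to 532.9 CPM. The 5 erythroid markers varied most between libraries, with sums of 584.6 to 2225 and 601.5 to 5298 CPM. All 5 had log2 fold changes above 0 (median 1.31), and 0 were called. The part of these cell types in the Atp2b1 and Atp2b4 values was not tested.

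**Figure D4:**
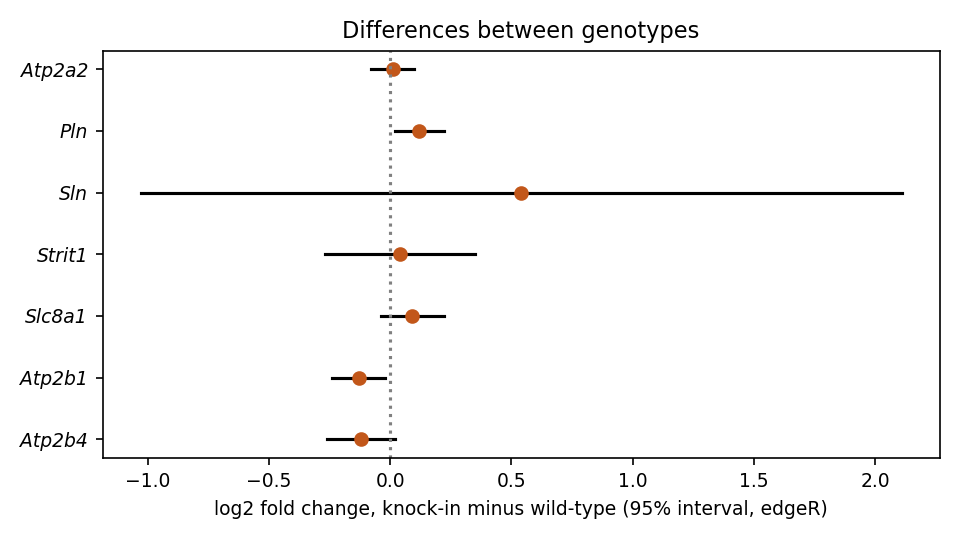
Log2 fold change of each of the 7 genes, knock-in minus wild-type (points), with the 95% interval from the edgeR fit over all 13485 tested genes (lines). The intervals of Pln (0.02 to 0.22) and Atp2b1 (-0.24 to -0.02) lay to 1 side of 0 before adjustment for the genes tested, and that of Sln ran from -1.03 to 2.11.

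Levels of different genes were compared as CPM per kilobase of the longest annotated coding transcript. On that scale Atp2a2 had a mean over the 6 libraries of 1658 and Pln of 1552 CPM per kilobase, and their ranges overlapped. Strit1 followed at 20.9, Slc8a1 at 6.34, Atp2b1 at 5.99, Sln at 2.39 and Atp2b4 at 1.69 CPM per kilobase. The ranges of Slc8a1 (5.72 to 6.84) and Atp2b1 (5.67 to 6.45) overlapped, and that of Sln (0.0466 to 4.48) held the whole range of Atp2b4. The distance from the pump and phospholamban to the others was larger than any spread between libraries, whereas the order among the others depended on the length used. With the mean length of the coding transcripts, Slc8a1 was at 21.4 and Atp2b1 at 18.2 CPM per kilobase, level with Strit1, and Pln at 2728 was above Atp2a2 at 1756. Strit1 is annotated with a single transcript of 243 bases, and the longest of Slc8a1 has 18464 bases. Full annotated lengths were used, without correction for fragment size, so the place of a transcript as short as Strit1 is uncertain. The annotation behind the deposited counts is also not given.

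Among 6 lists of genes related to these pumps, 46 of the 53 symbols found in the table were tested and 5 were called (10.9%, against 9.01% of all genes), 3 higher and 2 lower. In the list of regulators of phospholamban and SERCA, 3 of 19 rose, 1 fell and 15 did not pass, with a median log2 fold change of 0.00. Hrc, which encodes a histidine-rich protein that binds calcium in the reticulum lumen, rose from 715.8 ± 14.6 to 813.6 ± 7.57 CPM (edgeR adjusted p = 0.0220). Prkaca, a catalytic subunit gene of protein kinase A, the kinase of codon 16 of Pln, rose, with 123.8, 122.8 and 125.8 CPM in the wild-type mice and 137.2, 140.5 and 139.5 CPM in the knock-in mice (log2 fold change 0.16 ± 0.04, edgeR adjusted p = 0.0313). Prkacb, another catalytic subunit gene, was at 40.4 ± 0.535 and 42.5 ± 1.2 CPM and was not called (edgeR adjusted p = 0.388). The regulatory subunit genes Prkar1a and Prkar2a had log2 fold changes of -0.01 and -0.14 and did not pass (edgeR adjusted p = 0.901 and 0.0729). Camk2g, a CaMKII isoform gene, rose from 29.2 ± 2.49 to 36.7 ± 2.62 CPM (edgeR adjusted p = 0.0260), while Camk2d, the isoform gene best known in heart muscle, was at 96.4 ± 4.09 and 102.2 ± 5.37 CPM and was not called (edgeR adjusted p = 0.352). S100a1, a calcium-binding protein that stimulates SERCA, fell, with 258.6 ± 10.0 CPM in wild-type libraries and 223.4 ± 6.92 CPM in knock-in libraries (edgeR adjusted p = 0.0219). The catalytic subunit genes of the phosphatase that reverses phospholamban phosphorylation, Ppp1ca, Ppp1cb and Ppp1cc, had log2 fold changes of -0.03, -0.02 and -0.05 and did not pass. Its regulatory subunit genes in the list, Ppp1r1a, Ppp1r2 and Ppp1r3a, had 0.61, 0.00 and -0.09 and did not pass either (edgeR adjusted p = 0.163, 0.982 and 0.330). Ppp1r1a was read at only 18 to 43 counts per library.

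These calls were lost when certain libraries were left out. Over the 6 fits without 1 library each, which called 2.48% to 10.1% of all genes, S100a1 was called in 4, Hrc and Camk2g in 2 and Prkaca in 1. Without knock-in replicate 3 the edgeR adjusted p was 0.109 for S100a1, 0.0746 for Hrc, 0.117 for Camk2g and 0.124 for Prkaca, and without wild-type replicate 3 it was 0.0759, 0.0796, 0.0952 and 0.0746. Without knock-in replicate 2 it was 0.0653 for Hrc, 0.0857 for Camk2g and 0.102 for Prkaca. Without wild-type replicate 2 it was 0.0560 for Hrc and 0.0912 for Prkaca, and without wild-type replicate 1 it was 0.0679 for Camk2g and 0.0712 for Prkaca. With library size in place of TMM, Hrc, Camk2g and Prkaca did not pass either (edgeR adjusted p = 0.320, 0.129 and 0.421).

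Basigin (Bsg) and neuroplastin (Nptn) are the accessory subunits that plasma membrane calcium pumps need to reach the membrane. Bsg was read at 571.0, 514.1 and 514.7 CPM in the 3 wild-type mice and at 466.4, 457.7 and 419.5 CPM in the 3 knock-in mice. Every knock-in library was below every wild-type library, and Bsg fell (log2 fold change -0.25 ± 0.06, edgeR adjusted p = 0.0256). It did not pass without wild-type replicate 1 or 3 or knock-in replicate 2 or 3 (edgeR adjusted p = 0.0714, 0.0526, 0.0522 and 0.116). Nptn was at 47.5 ± 1.52 and 47.8 ± 3.21 CPM and was not called (edgeR adjusted p = 0.952). Bsg is made by many cell types. The macrophage marker sum and the smooth muscle and pericyte marker sum given above were also lower in all 3 knock-in libraries. The endothelial, fibroblast and erythroid sums overlapped between the genotypes. The part of any of these cell types in the Bsg value was not tested.

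**Figure D5:**
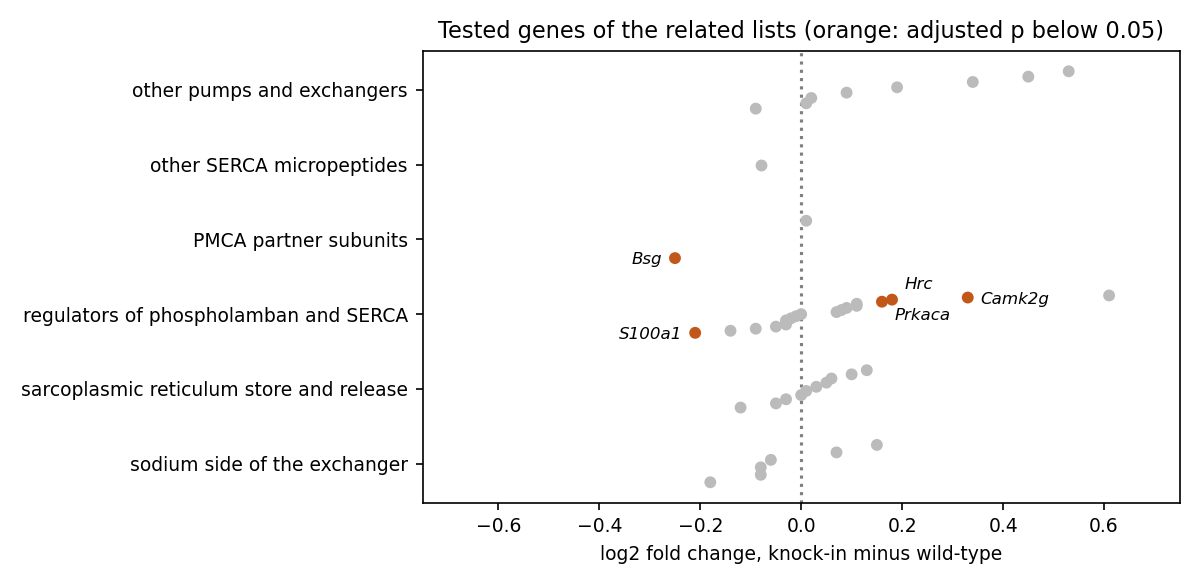
Log2 fold changes (knock-in minus wild-type) of the tested genes of the 6 related lists, 1 point per gene, ordered by value within a list, with called genes in orange and named. The called genes were Hrc, Prkaca and Camk2g on the higher side and S100a1 and Bsg on the lower side, and the largest of these differences was 0.33.

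The other lists held no called gene. Among other calcium pumps and exchangers 8 of 13 were tested, among them Atp2a1, the pump of fast skeletal muscle, read at 5 to 20 counts per library (log2 fold change 0.53 ± 0.45, edgeR adjusted p = 0.513). The smallest p of that list was for Atp2c1, a pump of the Golgi, at 32.2 ± 2.51 and 30.3 ± 1.18 CPM (edgeR adjusted p = 0.463). Of the other SERCA micropeptides, Mrln, encoding the skeletal muscle inhibitor myoregulin, had 0 to 8 counts per library and was not tested. The gene of another-regulin, 1810037I17Rik, was at 14.1 ± 0.388 and 13.4 ± 0.873 CPM (edgeR adjusted p = 0.532). Of 10 tested genes of the reticulum store and release, 7 had log2 fold changes above 0 and 3 below, among them Casq2, encoding the calcium buffer calsequestrin (0.13 ± 0.05, edgeR adjusted p = 0.161). On the sodium side of the exchanger 6 genes were tested, among them Atp1b1, a sodium pump subunit gene, at 138.2 ± 5.74 and 153.2 ± 4.26 CPM (edgeR adjusted p = 0.0756).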

How the data were processed

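Total RNA of left ventricle was made into stranded libraries after on-column DNase digestion, per the labels' protocols. The authors deposited estimated counts per gene symbol, made with bcl2fastq 2.19 and kallisto 0.44.0 on mouse build GRCm38, per the submitters' processing notes. The sources used here do not give the transcript annotation, the rounding or the use of strand, and such counts can divide reads of similar transcripts.

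All values were whole numbers, and 14853 of 34945 symbols had 0 counts in every library. Columns were matched to mice by sample number and mouse code. Libraries of a genotype differed by far more than sampling noise (chi-square per degree of freedom 8.46 or more), so all 6 were kept. Counts were fitted with edgeR 4.0.16 (R 4.3.3; filterByExpr, TMM, quasi-likelihood F test, two-sided, Benjamini-Hochberg over 13485 genes), with calls at an adjusted p below 0.05. SE is the fold change divided by the root of F, and 95% intervals use the fit's degrees of freedom. Rose and fell are written of called genes. Log2-CPM used a prior count of 2. Ratios were compared by exact permutation. The pipeline was tested on simulated data. Coordinates, lengths and reading frames come from GENCODE M21 (GRCm38). The alternatives included DESeq2 1.42.0 and limma-voom (limma 3.58.1).

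The members and lists were chosen with earlier results of these data known. Named are the 7 members, from each related list up to 4 called genes or otherwise 1 or 2 with the smallest p, markers that bear on a member, and the 5 genes nearest to a member whose log2-CPM SD is over 0.5. Camk2d, Prkacb, Prkar1a, Prkar2a, the Ppp1 subunits, Nptn and Mrln were added as examples after their values were seen. Some genes that this rule names are not reported here.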

Additional observations from a re-analysis of the deposited data

How the results depend on the processing

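Over 15 other fits (3 tools or dispersions, 4 scalings, 2 filters and each library left out), no member was called except Pln with DESeq2 (log2 fold change 0.12, 1 member called higher), and the cause was not tested. Signs reversed for Atp2a2 with library size alone (-0.07) and without wild-type replicate 3 (-0.02), for Sln without wild-type replicate 3 (-0.05), and for Strit1 with library size alone (-0.04), without wild-type replicate 1 (-0.05) and without knock-in replicate 3 (-0.06). Each of these 3 genes had a main value within its SE of 0. With a library left out, log2 fold changes ran from -0.02 to 0.03 for Atp2a2, 0.09 to 0.14 for Pln, -0.05 to 2.26 for Sln, -0.06 to 0.16 for Strit1, 0.04 to 0.15 for Slc8a1, -0.16 to -0.11 for Atp2b1 and -0.16 to -0.08 for Atp2b4. Calls over all genes then ran from 338 to 1378 (136 to 601 higher, 202 to 777 lower) and calls in the related lists from 0 to 5; these fits have fewer mice. Without TMM, 227 genes were called higher and 1177 lower, against 540 and 675. With a library left out, the log2 ratio to Atp2a2 ran from -0.10 to 0.16 for Strit1 (below 0 without wild-type replicate 1 or knock-in replicate 2 or 3) and from 0.25 to 3.51 for Sln. Per kilobase of mean coding transcript length, levels moved to 1756 (Atp2a2), 2728 (Pln), 21.4 (Slc8a1), 18.2 (Atp2b1) and 3.27 (Atp2b4), and per kilobase of all exons to 1223 (Atp2a2), 1313 (Pln) and 2.80 (Atp2b1), because the length in the denominator changed. Sln and Strit1 had the fewest counts, 2 to 235 per library. The exact 95% counting intervals of Sln did not overlap among the 3 wild-type libraries (30.3 to 56.8, 171.4 to 227.6 and 0.242 to 7.22 counts), so their spread was larger than counting error. limma-voom moved Sln to 2.02. No paired analysis was possible because the labels give the genotypes no shared replicate numbers.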
